A study of Mus musculus with 2 samples.

Results

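The 38 genes described here encode lysosomal enzymes, their membrane and lipid-handling partners, the proton pump that acidifies the lysosome and the transcription factors that control it. They are a list of gene symbols, drawn up with earlier results of these data known but with a rule that uses no measured value, and all 38 were found once among the 31053 genes of the deposited matrices. Total peritoneal cells of mice aged 10 to 14 weeks were collected 3 days after 1 mg of zymosan, a yeast cell wall preparation that provokes a sterile peritonitis, was injected into the cavity. The Cd36-/- library came from mice of the strain LysM-Cre (x) floxed CD36 and the fl/fl library from the strain floxed CD36. LysM-Cre acts in macrophages and other myeloid cells, and both groups carried floxed Cd36 and received zymosan. By the strain names only the Cd36-/- group carried LysM-Cre, so loss of Cd36 and presence of Cre cannot be told apart. Each library was 1 pool of 4 replicates, so no difference between libraries has a replicate check, and no test was possible.

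Lysosomes receive material taken up by phagocytosis and break it down with acid hydrolases. The vacuolar proton pump (V-ATPase) has a membrane part, V0, and an ATP-splitting part, V1, and its activity keeps the lumen acidic. Cathepsins cut proteins, glycosidases remove sugars, and NPC1, NPC2 and acid lipase move cholesterol out of degraded lipid. The MiT/TFE factors TFEB, TFE3 and MITF bind E-box sequences near many of these genes.

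Because the MiT/TFE factors recognise a core CACGTG, promoter stretches that hold it are shown for 8 of the genes, with the core in capitals. They were read 5′ to 3′ on the gene's strand from RefSeq promoters (build GRCm38.p6) that span 250 bases before to 50 after a start site. The stretches of Lamp1 and Glb1 lie before the gene as placed by the GENCODE M21 annotation. Those of Mcoln1, Ctsd, Ctsa, Atp6v1a, Lgmn and Ctsl lie within it.
Lamp1, a major lysosomal membrane glycoprotein, chr8:13159073-13159160, plus strand: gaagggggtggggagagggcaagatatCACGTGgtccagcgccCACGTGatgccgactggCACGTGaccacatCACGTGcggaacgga
Glb1, beta-galactosidase, chr9:114401003-114401062, plus strand: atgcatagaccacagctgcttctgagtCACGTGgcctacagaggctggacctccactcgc
Mcoln1, a lysosomal calcium channel, chr8:3500462-3500491, plus strand: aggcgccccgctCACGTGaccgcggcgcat
Ctsd, an aspartic protease, chr7:142387908-142387937, minus strand: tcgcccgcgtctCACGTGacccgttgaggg
Ctsa, a serine carboxypeptidase, chr2:164833743-164833772, plus strand: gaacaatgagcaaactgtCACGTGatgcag
Atp6v1a, the catalytic V1 subunit, chr16:44139373-44139402, minus strand: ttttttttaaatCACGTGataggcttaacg
Lgmn, an asparaginyl protease, chr12:102439124-102439153, minus strand: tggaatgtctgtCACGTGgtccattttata
Ctsl, a cysteine protease, chr13:64370736-64370765, minus strand: gttagaagcCACGTGctgatctaaattcta

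Promoters were matched for 31 of the 38 genes, and Ctsb, Ctsh, Npc1, Atp6v0d2, Atp6v1b2, Atp6v1h and Asah1 had none in the table. CACGTG, which reads the same on both strands, was present in 9 of the 31 genes (29.0%) and in 8.09% of all 27025 genes with a promoter. The longer TCACGTG or CACGTGA, which contains the core, was present in 8 (25.8%) against 4.29%. The palindrome TCACGTGA, which contains both, was present in 5 (16.1%) against 1.12%, and the 10-base palindromic CLEAR motif, which contains all of these, in 0 against 0.370%. Those 5 were Atp6v0d1, Atp6v1a, Ctsa, Ctsd and Mcoln1, and Lamp1 carried 4 cores within the stretch shown. Tfeb, Tfe3 and Mitf had no core in their promoter windows. A match is a description of the letters and not evidence of binding.

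The Cd36-/- library held 16543 barcodes and 116600732 UMIs (unique molecular identifiers, each 1 counted transcript), and the fl/fl library 15537 barcodes and 117238057 UMIs. After filtering, 15023 and 14005 cells were used, with medians of 6570 and 6897 UMIs, and 383 barcodes occurred in both libraries. Cell classes were rebuilt from marker genes without using the 38 genes, so each name means "like". Macrophages numbered 9461 and 7392 cells, B cells 2890 and 4175, T cells 742 and 649, natural killer (NK) cells 527 and 355, and type 2 and type 1 conventional dendritic cells (cDC2 and cDC1) 324 and 424, and 39 and 32. No marker of a class was at 0 in that class. The same held for macrophage markers in B cells, T cells, NK cells and cDC2, so it does not check the names. Cd36 itself stood at 172 CPM in Cd36-/- macrophages and 243 in fl/fl macrophages, where CPM is the UMI count of a gene scaled to a common total for each class. Tags were read at the 3′ end, and the deleted exons are not named in the labels, so the transcript does not check the genotype.

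Macrophages carried far more lysosomal transcript than lymphocytes. The 38 genes made up 1.209% of UMIs in Cd36-/- macrophages and 1.203% in fl/fl macrophages. In cDC2 they made up 0.656% and 0.633%, in B cells 0.302% and 0.275%, in NK cells 0.296% and 0.272%, and in T cells 0.246% and 0.219%. Of 32 genes with at least 20 CPM in macrophages or B cells, 28 were at least 2-fold higher in macrophages in both libraries and none was 2-fold lower. Among all genes compared, 23.5% (Cd36-/-) and 24.2% (fl/fl) were that much higher and 11.1% and 10.3% that much lower. Against T cells, 27 of 31 were at least 2-fold higher in both libraries and none was lower, where 21.6% and 23% of all genes were higher and 14.3% and 12.7% lower. Against cDC2, 14 of 32 were at least 2-fold higher in macrophages in both libraries, where the shares of all genes were 13.5% and 15.1%, and none was lower, where the shares were 8.71% and 8.12%.

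**Figure D1:**
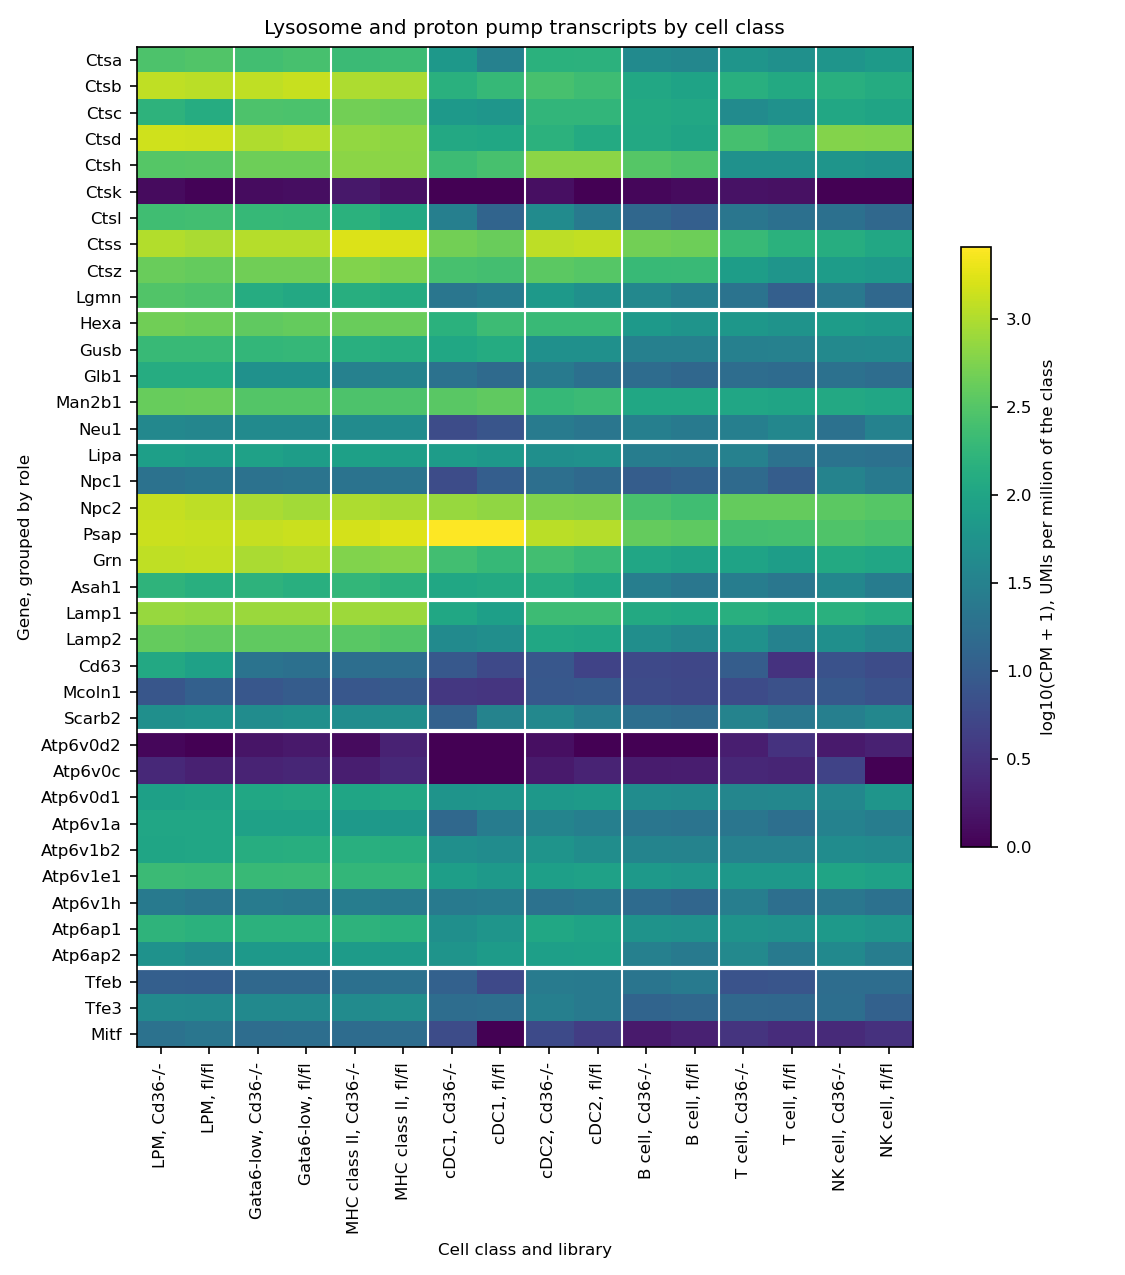
Levels of the 38 genes (rows, grouped by role) in 8 cell classes of each library (columns), as log10(CPM + 1). Macrophage sub-classes are at the left, Psap in cDC1 has the highest level, and Ctsk is dark in every column, at 0.677 CPM or less.

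The proteases differed in their B cell level relative to macrophages: in the Cd36-/- library Ctsl stood in B cells at 6.42% of its macrophage level, Ctsb at 9.19% and Ctsh at 73.8%. Cathepsin B (Ctsb), a cysteine protease, stood at 1186 and 1219 CPM in Cd36-/- and fl/fl macrophages and at 109 and 94.1 CPM in B cells. Cathepsin L (Ctsl) stood at 200.4 and 196 CPM against 12.9 and 9.72 CPM. In B cells Ctsl lay within the range of free RNA, which is described with the B cell results. The top of that range was 8.15% (Cd36-/-) and 5.69% (fl/fl) of the macrophage level. Not far above it in B cells were Ctsb, at 9.19% and 7.72%, and cathepsin D (Ctsd), at 9.99% and 8.40%. B cell levels are given here without subtraction of free RNA. Cathepsin S (Ctss), which trims the invariant chain of MHC class II molecules, was at 1709 and 1644 CPM in MHC class II macrophages and at 1174 and 1247 CPM in cDC2. Cathepsin H (Ctsh), an aminopeptidase, reached 648 and 652 CPM in cDC2, above the 434 and 440 CPM of macrophages as a whole. MHC class II macrophages had slightly more Ctsh than cDC2, at 664 and 657 CPM. NK cells, which keep granzymes in lytic granules related to lysosomes, held 606 and 577 CPM of cathepsin D (Ctsd), against 114 and 95.9 CPM in B cells. Cathepsin K (Ctsk), best known from osteoclasts, gave only 25 and 18 UMIs in all macrophages.

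Among the lipid-handling genes, prosaposin (Psap), the precursor of the saposins that help degrade sphingolipids, was highest in cDC1 in both libraries. It stood there at 2524 and 2579 CPM, against 1336 and 1393 CPM in macrophages and 405 and 364 CPM in B cells. The cholesterol carrier Npc2 stood at 1061 and 979 CPM in macrophages and at 269 and 234 CPM in B cells. Acid ceramidase (Asah1) stood at 164 and 144 CPM in macrophages and at 27.9 and 21.7 CPM in B cells. MHC class II macrophages had its highest level in both libraries, at 183 and 157 CPM. Progranulin (Grn), a secreted and lysosomal glycoprotein, was at 1011 and 1051 CPM in macrophages and at 104 and 90.7 CPM in B cells. The B cell level of Grn was 10.3% and 8.63% of the macrophage level, where free RNA reached 8.15% and 5.69%.

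Of the MiT/TFE factors, Tfeb had another order over the classes than most of the 38 genes. Tfeb was the 1 gene of the 32 compared that was lower in macrophages than in B cells: 12.5 and 12.4 CPM against 20.2 and 23.9 CPM, a log2 ratio of -0.70 in Cd36-/- and -0.94 in fl/fl. In cDC2 it stood at 24.9 and 24.5 CPM. Tfe3 had the opposite order, with 41.6 CPM in macrophages of both libraries and 11.4 and 12.8 CPM in B cells. Mitf stood at 16.3 and 17.8 CPM in macrophages and at 0.752 and 1.04 CPM in B cells, where it had 10 and 24 UMIs. In Cd36-/- B cells Mitf lay within the range of free RNA. Macrophages are the deeper cells, with medians of 8124 and 9184 UMIs against 3645.5 and 4296 in B cells, and a share of cells with a UMI grows with depth. After each cell was thinned to 2000 UMIs, Tfeb was detected in 3.92% (3.14 to 4.81) of Cd36-/- and 4.66% (3.99 to 5.40) of fl/fl B cells. The thinned shares were 1.79% (1.37 to 2.29) and 1.77% (1.31 to 2.35) in LPM, and 2.54% (2.12 to 3.03) and 2.56% (2.07 to 3.13) in Gata6-low macrophages. In MHC class II macrophages they were 3.15% (2.13 to 4.46) and 3.94% (2.79 to 5.38), intervals that overlap those of B cells. Unthinned, the shares were 8.51% and 11.95% in B cells, 7.40% and 7.82% in LPM, 11.3% and 12.7% in Gata6-low and 12.1% and 13.4% in MHC class II macrophages. The thinning left out 694 and 610 B cells, 61 and 49 LPM, 147 and 135 Gata6-low and 13 and 28 MHC class II macrophages.

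Among the glycosidases, Hexa, a subunit of beta-hexosaminidase, stood at 414 CPM in macrophages of both libraries and at 69.7 and 58.2 CPM in B cells. Beta-glucuronidase (Gusb) stood at 184 and 183 CPM against 29.3 and 29.7 CPM, and the sialidase Neu1 at 40.9 and 39.9 CPM against 28.7 and 24.2 CPM. Neu1 was thus among the 4 genes that did not reach 2-fold, with Ctsh, Atp6v1h and Tfeb. Among the membrane genes, Lamp1 stood at 789 and 775 CPM in macrophages and at 116 and 105 CPM in B cells, and Lamp2 at 382 and 366 CPM against 48.1 and 37.2 CPM. Levels of Lamp1 were nearly even over the macrophage sub-classes, between 724 and 804 CPM. Cathepsin Z (Ctsz), a carboxypeptidase, kept a high level in B cells, at 200.3 and 201 CPM against 466 and 455 CPM in macrophages.

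The 7 V-ATPase members that could be compared were higher in macrophages than in B cells in both libraries. Atp6v1a, which splits ATP, stood at 91.8 and 90.7 CPM against 20.6 and 19.7 CPM. The stalk subunit Atp6v1e1 stood at 200.2 CPM in fl/fl macrophages and within 1 CPM of that in Cd36-/-, against 68.1 and 61.7 CPM in B cells, and the accessory subunit Atp6ap1 at 158 and 152 CPM against 54.8 and 52.6 CPM. The regulatory partner of Atp6v1a, Atp6v1b2, stood at 122 and 124 CPM against 34.1 and 32.5 CPM, and the paralogue Atp6v1b1 gave 0 UMIs in macrophages of either library. The V0 subunit Atp6v0d1 stood at 99.5 and 104 CPM against 44.9 and 42.3 CPM. Its paralogue Atp6v0d2, prominent in osteoclasts, gave 32 and 36 UMIs in all macrophages and 0 in B cells, where 3 counts would have been 0.226 and 0.130 CPM. Atp6v0c, the proteolipid of the membrane ring, was counted at only 1.26 CPM in macrophages of both libraries. Of the 31-base words at the 3′ ends of its transcripts, 29.7% also occur in other genes, among them the pseudogenes Atp6v0c-ps1 and Atp6v0c-ps2, so its counts are uncertain. Other paralogues, from a wider list of subunits, were Tcirg1 (38.4 and 37.5 CPM in macrophages), Atp6v0a1 (16.6 and 20.8 CPM), Atp6v0a2 (12.2 and 13.0 CPM) and Atp6v0a4 (0 UMIs in both). Atp6v1c1 stood at 36.1 and 33.4 CPM and Atp6v1c2 at 2 and 0 UMIs. Atp6v1g1 stood at 382 and 291 CPM, Atp6v1g2 at 1.75 and 1.91 CPM, and Atp6v1g3 at 1 and 0 UMIs. Atp6v0e stood at 473 and 405 CPM against 2 and 4 UMIs of Atp6v0e2, and Atp6v1e2 gave 1 and 0 UMIs.

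Within macrophages, 3 genes separated the large peritoneal macrophages (LPM), the resident cells marked by the factor Gata6, from Gata6-low macrophages. LPM numbered 3473 and 2698 cells, Gata6-low macrophages 5022 and 3726, and MHC class II macrophages 966 and 968. Cd63, a tetraspanin of late endosomes, stood at 114 and 88.3 CPM in LPM and at 18.8 and 17.0 CPM in Gata6-low macrophages, log2 ratios of 2.60 and 2.38. Glb1 stood at 128 and 129.8 CPM against 51.5 CPM in both libraries, and Lgmn at 303 and 285 CPM against 127 and 113 CPM. These were the 3 genes at least 2-fold higher in both libraries, of 31 compared in Cd36-/- and 33 in fl/fl, and 3.41% and 3.78% of all genes were that much higher. Cathepsin C (Ctsc), which activates granule serine proteases, went the other way, at 158 and 128 CPM against 284 and 278 CPM, log2 ratios of -0.84 and -1.12. It was 2-fold lower in fl/fl alone, where 3.05% of all genes were, and 0 genes were in Cd36-/-, where 2.71% were. When cells were gated one by one on marker UMIs, only 1 gene passed 2-fold in each library. Cd63 shares 42.8% of its 3′ words with other genes, Cd63-ps among them, so its level is uncertain.

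**Figure D2:**
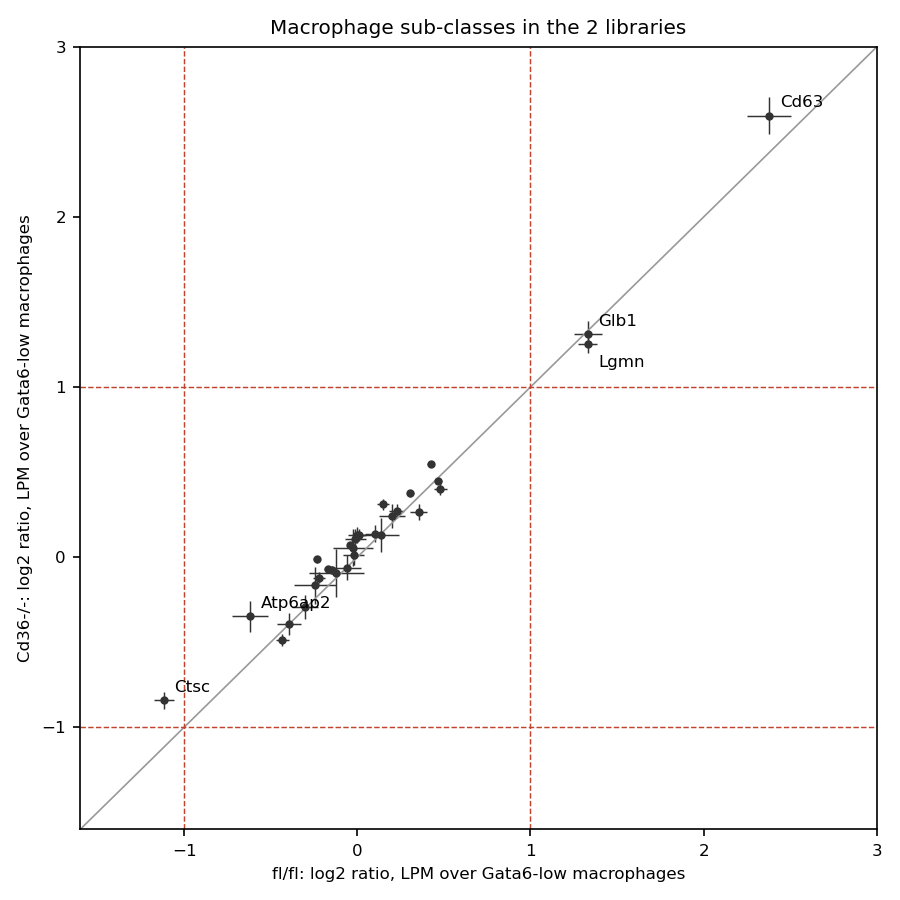
Log2 ratio of CPM in LPM over Gata6-low macrophages for each gene compared, fl/fl on the x axis and Cd36-/- on the y axis, with 95% intervals for counting error and dashed lines at 2-fold. Cd63, Glb1 and Lgmn lie beyond 2-fold in both libraries, and Ctsc lies at the opposite end.

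No gene of 30 differed by 2-fold between MHC class II and Gata6-low macrophages in either library, where 1.33% and 1.44% of all genes were higher in the former and 2.6% and 2.73% lower. Ctsc, at 483 and 452 CPM in MHC class II macrophages, had log2 ratios of 0.76 and 0.70, and Ctss had 0.66 and 0.63. Grn stood at 586 and 627 CPM there against 949 and 1013 CPM, log2 ratios of -0.70 and -0.69, and Glb1 had -0.73 and -0.65. A finer clustering (resolution 2 in place of 1) left 319 and 485 MHC class II macrophages. There a cluster of 1276 cells led by Cx3cr1 was named Gata6-low. Gating one by one gave 860 and 919 cells, and no result for this class was rerun with either.

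The 9 macrophage clusters differed further. Alpha-mannosidase (Man2b1) was highest in the LPM cluster led by Cxcl13 and Vsig4, which also had Alox15 among its leading genes, at 586 and 686 CPM. The other 8 clusters ranged from 249 to 395 CPM. Psap was highest in the Retnla cluster of MHC class II macrophages, at 2154 and 2354 CPM. Ctsc was highest in the other MHC class II cluster, led by Cx3cr1, at 513 and 491 CPM. The cycling Gata6-low cluster had the lowest Cd63, at 11.8 and 10.2 CPM. The cluster with most Cd63 differed between the libraries: the Cxcl13 cluster in Cd36-/- and the Cxcl2 cluster of LPM in fl/fl.

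**Figure D3:**
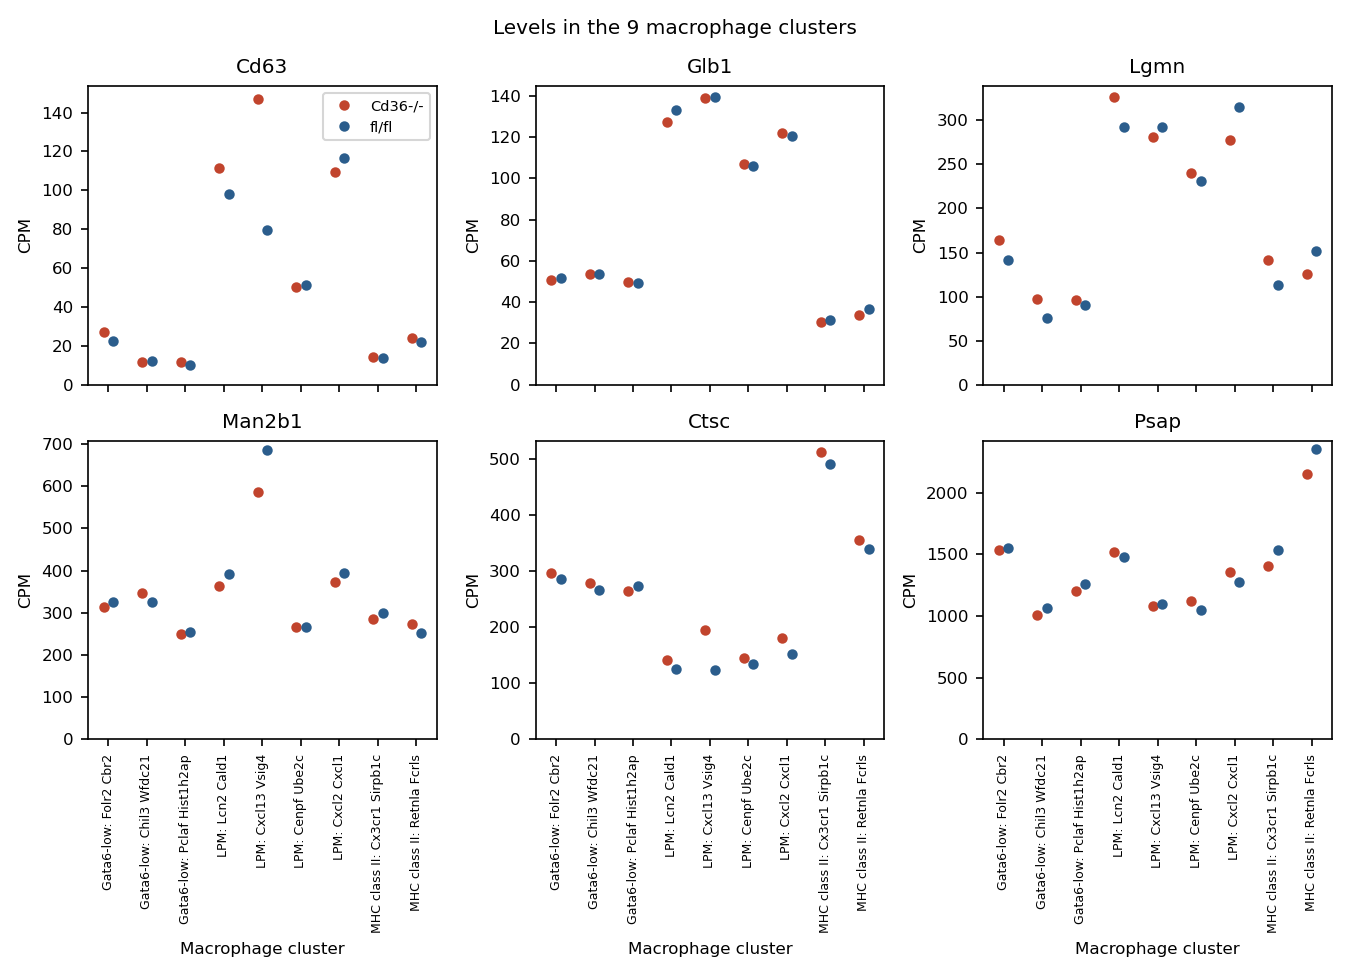
CPM of 6 genes in each of the 9 macrophage clusters (x axis, named by sub-class and 2 leading genes), with Cd36-/- and fl/fl as separate points. Cd63 and Ctsc differ most between libraries in the Cxcl13 cluster, and Man2b1 peaks there in both.

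Between the libraries, the lysosomal transcripts of macrophages differed little. Of the 38 genes, 31 reached 20 CPM in at least 1 library. Their median log2 ratio (Cd36-/- over fl/fl) was 0.02, against -0.01 for all 4587 genes compared. At 1.2-fold, 1 of the 31 was higher in Cd36-/-, where 2.57% of all genes were, and 0 were lower, where 4.03% were. None reached 1.5-fold, where 0.218% of all genes were higher and 0.371% lower. The intervals below are 95% intervals for counting error only, and variation between mice is not in them. The make-up of the macrophages also differed between the libraries. Of 9461 and 7392 macrophages, 1625 and 962 were in the Gata6-low cluster led by Chil3, and 184 and 298 in the Retnla cluster. Ratios over all macrophages were not adjusted for this.

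The gene past 1.2-fold was Cd63, at 50.5 CPM (49.0 to 52.1) in Cd36-/- and 41.1 CPM (39.6 to 42.6) in fl/fl macrophages, a log2 ratio of 0.30 (0.23 to 0.37), whose interval reaches below the 1.2-fold limit. Its count is uncertain for the shared 3′ sequence given above. The call was lost when cells were gated one by one, at 0.25, and when each cell was thinned to 3000 UMIs, at 0.21. The difference was uneven over clusters. In the Cxcl13 cluster of LPM, Cd63 stood at 147 CPM (138 to 156) and 79.5 CPM (71.8 to 87.7), while in the Cxcl2 cluster of LPM it stood at 109 and 117 CPM. Cd63 was higher in Cd36-/- in 6 of 9 clusters. The clusters are parts of the same pooled libraries, so counts over clusters, here and below, are not replication. The share of all genes with such counts was not computed.

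The 6 lipid-handling genes stood on both sides of 0: Asah1, Npc2 and Lipa were higher in Cd36-/- by less than 1.2-fold, and Psap, Grn and Npc1 were lower. Asah1 had a log2 ratio of 0.19 (0.15 to 0.23) and was higher in 9 of 9 clusters. Npc2 had 0.12 (0.10 to 0.13), also higher in 9 of 9. Lysosomal acid lipase (Lipa), which frees cholesterol from its esters, stood at 86.3 and 77.8 CPM, a log2 ratio of 0.15 (0.10 to 0.20), and was higher in 8 of 9. Psap went the other way, at -0.06 (-0.07 to -0.05), and Npc1, the membrane partner of Npc2, was under 20 CPM in both libraries, at 18.4 and 19.7, with a ratio of -0.10 (-0.21 to 0.01).

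Other genes were lower in the Cd36-/- library. Ctsa, which protects beta-galactosidase and neuraminidase, stood at 253 and 273 CPM, a log2 ratio of -0.11 (-0.14 to -0.08), and was lower in 8 of 9 clusters. Scarb2, the receptor that carries beta-glucocerebrosidase to lysosomes, had -0.11 (-0.18 to -0.04), and Grn -0.06 (-0.07 to -0.04), each lower in 8 of 9. Atp6v0d1 had -0.07 (-0.12 to -0.02), while the V1 subunit Atp6v1h, at 24.9 and 22.4 CPM, had 0.15 (0.05 to 0.24). Mcoln1 had 7.39 and 9.30 CPM, below the level at which genes were compared.

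**Figure D4:**
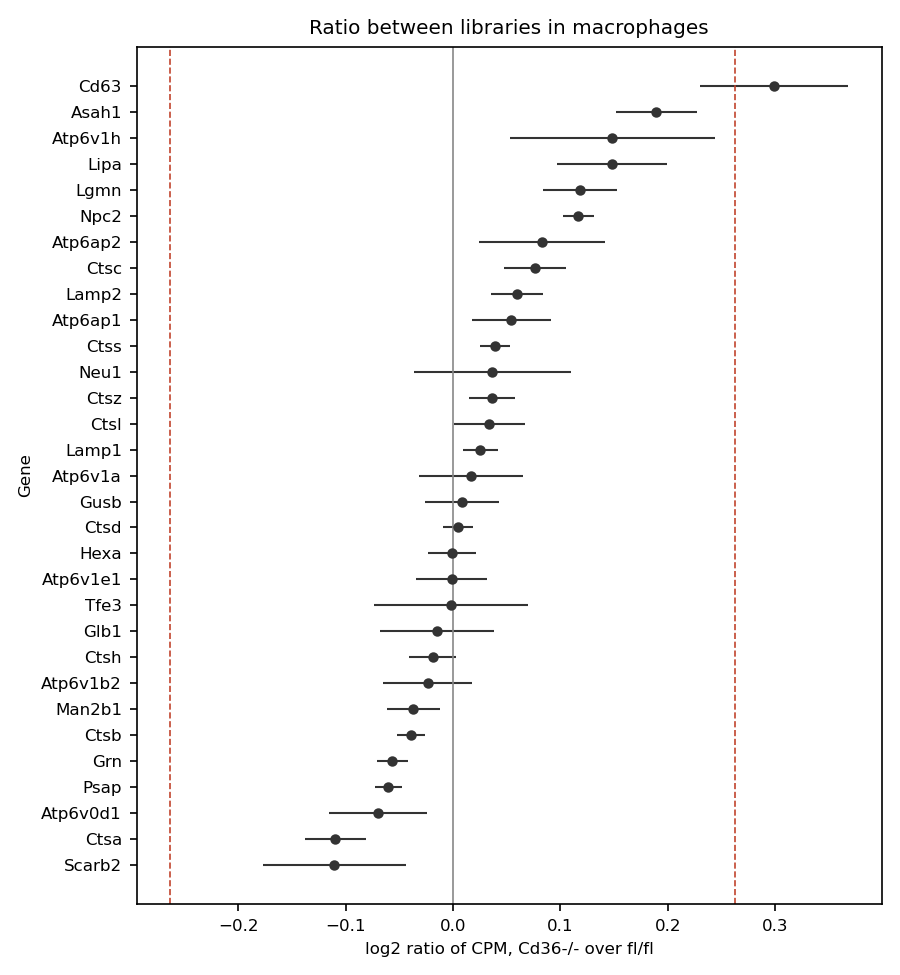
Log2 ratio of CPM (x axis), Cd36-/- over fl/fl, in macrophages for the 31 genes compared (y axis), with 95% intervals for counting error and dashed lines at 1.2-fold. Cd63 is the 1 point past the limit, and the others lie between -0.11 and 0.19.

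In LPM taken alone, 3 of 33 genes were at least 1.2-fold higher in Cd36-/-, where 5.12% of all genes were, and 0 were lower, where 6.2% were. They were Cd63 (0.37), Ctsc (0.31, from 158 and 128 CPM) and Atp6ap2, an accessory subunit of the pump also known as the prorenin receptor (0.28, from 54.1 and 44.7 CPM). The Ctsc difference was largest in the Cxcl13 cluster, at 195 CPM (185 to 206) and 125 CPM (115 to 135). In Gata6-low macrophages 0 of 30 passed in either direction, where 2.81% of all genes were higher and 5.13% lower. In MHC class II macrophages 1 of 30 passed: Ctsl, at 150.5 and 114 CPM, a log2 ratio of 0.40 (0.28 to 0.53), where 7.6% of all genes were higher and 9.83% lower. Ctsl was higher in both clusters of that class, at 156 and 116 CPM in the Cx3cr1 cluster and 126 and 106 CPM in the Retnla cluster, which held 184 and 298 cells. The Ctsl ratio was not rerun with the smaller MHC class II group of the finer clustering.

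The size of the cDC2 class depended on the clustering. A finer clustering (resolution 2 in place of 1) gave 213 and 299 cells and left 212 cells unnamed as mixed cDC2 and B cell. Gating one by one gave 59 and 100, and cDC2 levels and ratios were not rerun with either. In cDC2 as first clustered, 8 of 31 genes were at least 1.2-fold higher in the Cd36-/- library, where 15.1% of all genes were. None was lower, where 8.91% were. The Ctsl ratio was again the highest, from 43.1 and 23.8 CPM, at 0.86 (0.46 to 1.26). Glb1 had 0.53 (0.02 to 1.03), Scarb2 0.48 (0.08 to 0.88), Lgmn 0.41 (0.11 to 0.70) and Ctsd 0.36 (0.17 to 0.55). Atp6v1b2 had 0.32 (0.01 to 0.64), Asah1 0.32 (0.11 to 0.53) and Neu1 0.27 (-0.21 to 0.75). These genes are higher in macrophages than in cDC2, and the summed level of 7 macrophage markers in cDC2 was 799 CPM in Cd36-/- and 644 CPM in fl/fl. A share of free RNA, set in B cells as described with their results and not anew for cDC2, was subtracted. All 8 genes were still past 1.2-fold higher, and 0 were past it lower. Ctsl then had 1.08, Glb1 0.58, Scarb2 0.52, Lgmn 0.40, Atp6v1b2 0.34, Ctsd 0.32, Asah1 0.32 and Neu1 0.28. The median over the 31 genes went from 0.06 to 0.04, the same as the 0.04 of all genes.

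In B cells, 22 of 26 genes compared were above 0, where 54.0% of all genes were, and the median log2 ratio was 0.15, against 0.02 for all genes. 3 of the 26 passed 1.2-fold, where 6.34% of all genes did. They were Lgmn (0.42), Lamp2 (0.37), a membrane glycoprotein of the lysosome, and Asah1 (0.36). 0 were lower, where 5.3% were. RNA of macrophages in droplets of other cells was gauged with 8 macrophage-restricted transcripts. In B cells these stood at a median of 6.28% (Cd36-/-) and 4.64% (fl/fl) of their macrophage level, and all 8 were higher in Cd36-/- B cells, with a median log2 ratio of 0.54. In macrophages themselves their median log2 ratio was 0.12. A free RNA share was set from these transcripts in B cells, at 7.84% (Cd36-/-) and 6.58% (fl/fl). The summed UMIs of all barcodes of a library served as the free RNA, and the same share was used for other classes. Its subtraction in B cells brought the genes' median to 0.05 and the number above 0 to 18. Lgmn then had 0.39 and Lamp2 0.29, while Asah1, at 0.257, was below the 1.2-fold limit of 0.263, which left 2 of the 3 calls. Among the B-1 cells, 3 of 26 genes were 1.2-fold higher and 0 lower, where 7.42% and 7.32% of all genes were. Among the shallower B-2 cells, with medians of 2078 and 2471 UMIs, 10 of 27 were higher and 1 was lower, where 11.4% and 8.35% of all genes were. The macrophage-restricted transcripts stood at 8.01% and 5.95% of their macrophage level in B-2 cells, and Ctsb, among the 10, was at or below the highest of them in both libraries. Their part in the B-2 count was not tested. The lower one was Tfeb, at 19.9 and 31.1 CPM, a log2 ratio of -0.64 (-1.05 to -0.25).

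**Figure D5:**
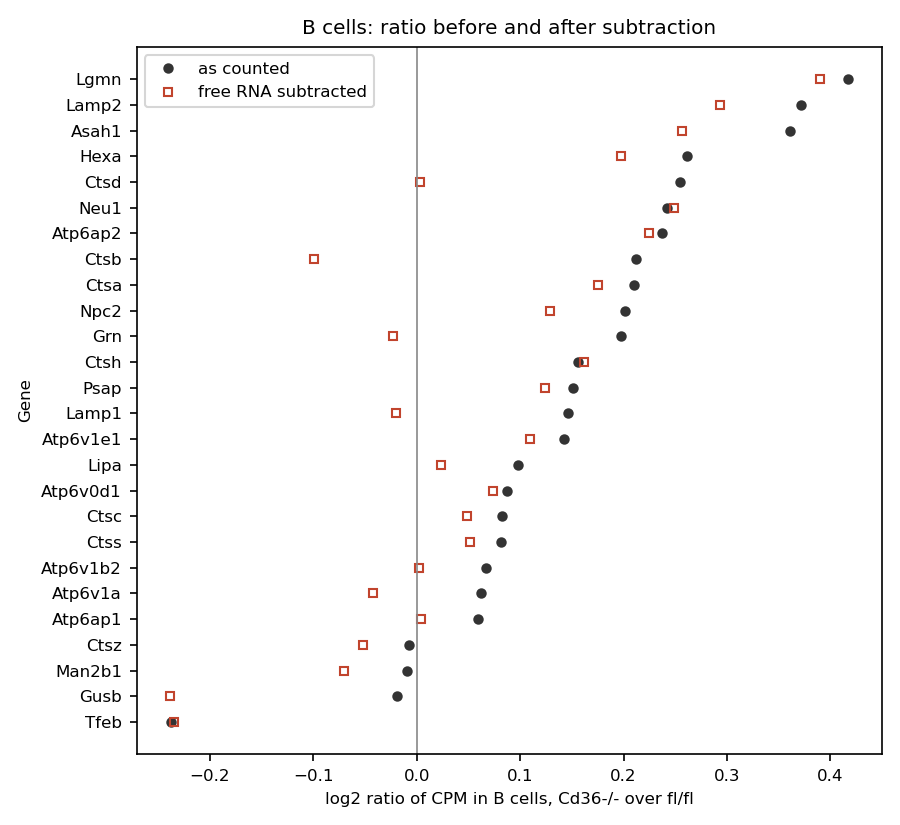
Log2 ratio of CPM (x axis), Cd36-/- over fl/fl, in B cells for the 26 genes compared (y axis), as counted (filled circles) and after subtraction of free RNA (open squares). Most circles lie above 0 and 18 squares remain there, with Lgmn highest under both.

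T cells and NK cells had median log2 ratios of 0.19 and 0.16, against 0.07 and 0.04 for all genes. As counted, 20 of the 27 T cell genes compared were above 0, where 61.2% of all genes were. The share of free RNA set in B cells was subtracted and was not set anew for T cells. The T cell median was then 0.10, against 0.07 for all genes. After it, 18 of 27 genes were above 0. Past 1.2-fold, 9 were higher in place of 11, and 3 were lower in place of 2. In T cells 11 of 27 genes were at least 1.2-fold higher in Cd36-/-, where 21.7% of all genes were, and 2 lower, where 10.8% were. In NK cells 6 of 27 were higher, where 24.9% of all genes were, and 4 lower, where 18.7% were. The macrophage-restricted transcripts stood at 7.86% and 5.38% of their macrophage level in T cells and at 9.07% and 6.55% in NK cells. Neutrophils numbered 111 and 136 cells with medians of 736 and 911 UMIs, and the same transcripts stood at 65.8% and 38.6% of the macrophage level there, so no lysosomal level is read from them.

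The wider pathway was examined in 94 further genes of lysosomal function, of which 47 reached 20 CPM in macrophages. At 1.2-fold, 2 were higher in Cd36-/- and 2 were lower, each 4.26% of the 47, near the 2.57% and 4.03% of all genes. Of all genes compared in macrophages, 46.8% were above 0. V-ATPase subunits outside the main list were above 0 in 7 of 8 cases, with a median log2 ratio of 0.13, and the V-ATPase subunits among the 38 genes in 4 of 7, with a median of 0.02. Glycosidases and sulfatases were below 0 in 10 of 11 cases, with a median of -0.17, while the 5 glycosidases among the 38 genes lay between -0.04 and 0.04, with 2 above 0. Proteases and their inhibitors had 3 of 5 above 0, lipid and other hydrolases 2 of 8, membrane, transport and sorting genes 4 of 8, and MiT/TFE and nutrient signalling genes 4 of 7.

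The highest ratios belonged to Atp6v1g1, a stalk subunit of the pump, at 0.39 (0.37 to 0.42), and to the cathepsin inhibitor Cstb, at 0.29 (0.26 to 0.33). The secreted inhibitor Cst3 had 0.21 and the V0 subunit Atp6v0e 0.22. The lowest were Arsb, a sulfatase, at -0.35 (-0.44 to -0.25), and Atp6v0a1, a V0 subunit, at -0.32 (-0.43 to -0.22). Laptm5, a lysosomal membrane protein of blood cells, had -0.22 and the fucosidase Fuca1 -0.18. Subunits of the same pump stood on both sides of 0.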

How the data were processed

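Peritoneal cells of 2 pools were sequenced as 1 library each with 10x Genomics 3′ v2 chemistry, per the labels' protocols. The deposited files list UMI counts for each gene in each barcode, not normalized, and name software version 3.0.0, per the file headers. The submitters' processing notes name Cell Ranger and mm10, and the annotation release is not given in the sources used here. Positions came from GENCODE M21, whose IDs matched for all 38 genes.

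Barcodes below 200 genes (36 in Cd36-/-, 38 in fl/fl) or above 10% mitochondrial UMIs (509 and 773) were dropped, and Scrublet doublets (977 and 728) were removed. Cells were clustered in scanpy 1.11.5 with leidenalg 0.10.2 (2000 variable genes, 40 components, 20 neighbours, resolution 1), with the 38 genes, the 94 further genes, Cd36 and lysozyme genes kept out. This gave 29 clusters, of which 7 stayed unnamed. Clusters were named from marker lists.

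UMIs of all cells of a class were added up within each library. Intervals are at 95% and cover counting error only: exact Poisson for CPM, conditional binomial (exact) for ratios and Clopper-Pearson for shares of cells. Genes were compared at 20 CPM or more in 1 of the groups. Limits were 1.2-fold between libraries and 2-fold between classes, and no p-value was computed. Counts were also simulated, with a 1.5-fold change given to 200 genes. In simulated macrophages (4469 genes) the 1.2-fold limit caught 100% of the changed and 0% of the unchanged genes. In simulated B cells (3977 genes) it caught 100% and 0.291%. The simulation varied counting error only. Variation between mice, pools or preparations was left out, so it cannot show how often such variation alone would pass the limit.

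The text names all 38 genes, every paralogous V-ATPase subunit, and the 4 highest and 4 lowest of the further genes by the interval bound nearest 0. Genes past the limit between libraries in T cells, NK cells and B-1 cells were counted and not named. In B-2 cells only Ctsb and Tfeb were named. The genes, lists and rules were chosen with earlier results of these data known. Subtraction of free RNA in B cells, T cells and cDC2 was added after the data were seen. A planned comparison of protein sequences was not made. Thresholds for naming clusters, the 10-base motif and the clusters singled out were chosen after the data were seen.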

Additional observations from a re-analysis of the deposited data

Results flagged for a closer look

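For 5 genes the ratio between libraries had opposite signs in LPM and in Gata6-low macrophages, with both counting intervals clear of 0. The difference between the sub-classes was not tested, since each library is 1 pool. Log2 ratios of Cd36-/- over fl/fl are given for LPM first. Ctsb had 0.0888 and -0.134, and Ctsd 0.0574 and -0.066. Hexa, a subunit of beta-hexosaminidase, had 0.0963 and -0.0647, Psap 0.0324 and -0.0776, and the V1 subunit Atp6v1e1 0.0714 and -0.0587. These 5 were 16.7% of the 30 genes compared in both sub-classes, and 3.79% of all 4248 genes compared in both showed such a pattern. Genes with many UMIs have narrow intervals and meet this condition more easily, and the share was not matched on level.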

How the results depend on the processing

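No paired analysis was possible because each group is 1 pooled library, and leaving out a replicate was not possible for the same reason. In all, 13 alternatives were run. The count of 28 genes at least 2-fold higher in macrophages than in B cells was the same in both libraries under each of the 6 alternatives run for it. Gating cells one by one gave 1 gene (Cd36-/-) and 1 gene (fl/fl) at least 2-fold higher in LPM, against 3 in each. The summed log2 ratio of the 38 genes in macrophages, 0.00736, became 0.00312 with free RNA subtracted, 0.0190 with scaling by the median ratio, -0.00289 without the 50 genes with most UMIs in the total and -0.00617 with thinned cells. Genes at least 1.2-fold higher numbered 0 with gating and 0 with thinning, and 0 at a 1.5-fold limit. At a minimum of 5 CPM 1 gene was lower, Mcoln1, at -0.33. Of the 94 further genes, 4 were lower at 5 CPM and 0 at 50 CPM, and at 1.5-fold 0 were higher and 0 lower. Of 310 values of single genes under 10 alternatives, 298 stayed within the counting interval, 12 moved outside it, all with thinned cells, and 26 of 31 genes kept their sign under all 10. Fewer or more genes are tested under the CPM minimums by construction, and the cause of the other shifts was not tested. With thinned cells Scarb2 had -0.22, Ctsa -0.15, Psap -0.11 and Ctsc 0.13. The median ratio of the 31 genes was -0.00186 without the 50 genes and above 0 otherwise. Thinning left out 530 and 454 macrophages. Genes under 20 CPM are limited by depth.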

Other observations

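A cluster of 477 Cd36-/- and 452 fl/fl cells stayed unnamed because its median depth was low, at 1281 and 1572 UMIs against 6570 and 6897 in all cells, with none of its type's markers among its leading genes. The 38 genes made up 1.55% and 1.62% of its UMIs, above the 1.30% and 1.25% of LPM. Lgmn was among its 10 leading genes, at 467 and 499 CPM, Grn stood at 1924 and 2137 CPM and Psap at 3108 and 3022 CPM. Its median mitochondrial share was 4.09% and 4.65%. These cells are in none of the comparisons above.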
